A study of Brassica rapa subsp. chinensis with 2 samples.

Results

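Of the 33087 genes in the deposited table, 137 had no read in any library of FT stems and a mean normalized count of at least 50 in CX001 stems (0.414% of all rows, and 0.699% of the 19601 rows that reached a mean of 50 in CX001). They were chosen by these line means, so their absence from FT and their level in CX001 are given as a description and were not tested. In the opposite direction, 118 genes had no read in CX001 and a mean of at least 50 in FT, which is 0.595% of the 19833 rows that reached 50 in FT. A normalized count is the number of reads on a gene divided by the size factor of its library, so 1 read was worth between 0.944 and 1.07 normalized counts in a CX001 library and between 0.962 and 1.05 in an FT library.

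Both lines are doubled haploids of *Brassica rapa* raised by microspore culture, so each is close to uniform in its genome. CX001 is a wax-less flowering Chinese cabbage and FT is a waxy Chinese cabbage that served as the control. The RNA was taken from stems at bolting, with 3 libraries per line. According to the paper, plants were grown from germinated seeds vernalized in the cold, and no other treatment was named. The study addressed the loss of wax in CX001, which it mapped to *BraA09g066480.3C*, the *B. rapa* counterpart of *CER1*, an enzyme of wax alkane synthesis. The lines belong to different crop types, so differences that come from the wax locus and differences between the genomes of both types cannot be told apart, nor can fewer cells of a type and less RNA per cell. Where the libraries of a line came from (separate plants or repeats of 1 extract) was not stated, so p-values measure the spread between libraries, which may be technical.

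Reads of RNA-seq are counted against the gene models of 1 reference genome. Cultivated forms of *B. rapa* differ in which genes they carry, in the sequence of the copies they share and in where those copies are active. The genus descends from an ancient genome triplication, so many *Arabidopsis* genes have several *B. rapa* counterparts, of which some have been lost or shortened in particular lines. Families of immune receptors, F-box proteins and transposon-derived genes are known to vary strongly between plants of 1 species. No gene or protein sequences were used here, so none are printed.

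The depth was similar in both lines. The reads that could be solved for each library came to between 13485053 and 15179348 in CX001 and between 13760517 and 14303499 in FT, over the 32951 and 32966 genes with line means up to 10000. At this depth a count of 0 over the 3 FT libraries allows a mean of up to 1.05 normalized counts (3 reads), and this floor covers counting error only. *BraA09g066480.3C* had a mean of 16922 in FT, whereas its CX001 libraries held 5.66, 11.6 and 25.7 normalized counts. Stem markers were present in both lines: all 6 rows of the phloem markers and all 8 of the epidermis markers had a mean of 10 or more in each line. The phloem rows summed to 2377 in FT and 2373 in CX001, and the epidermis rows to 2096 and 1781. The near-equal phloem sums cover rows that differed in both directions. SEOB was at 718 in FT and 1322 in CX001, *BraA09g040330.3C* (SUC2) at 996 and 487, and *BraA07g026240.3C* (APL) at 130 and 11.7. The 13 xylem rows summed to 5092 in FT and 15758 in CX001, with 10 and 11 of them at a mean of 10 or more. The 6 rows of photosynthetic tissue summed to 84108 in FT and 61107 in CX001, the root marker SCR, which shoots also express, stood at 621 and 307, and no row carried a pollen marker. The part of these marker differences in the results below was not tested.

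The 137 genes were mostly of low to moderate level. Their CX001 means ran from 50.2 to 1433, with a median of 80.7, and the reads behind a mean ran from 144 to 4383 over the 3 libraries, with a median of 244. Against the FT floor they were at least 47.7-fold to at least 1359-fold higher in CX001. Per kilobase of coding length their median was 156 normalized counts, against 284 for the other rows that reached 50 in CX001. Raising the minimum mean to 100, 200, 500 and 1000 left 52, 15, 3 and 2 genes read only in CX001, and 49, 18, 1 and 0 read only in FT.

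The edges of the rule were as follows. Just inside the minimum stood *BraA09g032490.3C* (50.2), *BraA02g042360.3C* (51.1) and *BraA02g032480.3C* (51.2), and just under it, also without an FT read, *BraA05g038810.3C* (SIS8, a protein kinase, 49.9), *BraA03g055510.3C* (PER45, a peroxidase, 49.7) and *BraA01g040400.3C* (49.5). A further 47, 27 and 18 genes that reached 50 in CX001 held 1, 2 and 3 reads over the FT libraries. Among those with 1 FT read were *BraA09g003180.3C* (SDH2-1, an iron-sulfur subunit of succinate dehydrogenase) at a CX001 mean of 729.7, *BraA09g045280.3C* at 718 and *BraA02g042390.3C* (an F-box protein) at 647.

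The libraries of CX001 agreed well for most of the 137 genes, and 136 of them had reads in all 3 libraries. The ratio of the highest to the lowest library had a median of 1.45 over those 136 genes, stood at or under 1.5 in 72 of them and was above 2 in 26. Their coefficient of variation over the 3 libraries had a median of 20.8%, against 15.6% for the 16860 other genes in the same range of CX001 means. No library carried the set: the members summed to 17616, 17974 and 17699 normalized counts in libraries a, b and c, and library a was the highest for 51 genes, b for 39 and c for 47. The exception was *BraA01g020550.3C* (At4g16260, a glucan endo-1,3-beta-glucosidase, an enzyme family that cuts callose), which was at 0 in libraries a and b and at 154 in library c. The next most uneven was *BraA02g042360.3C*, at 11.3, 43.4 and 98.6.

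**Figure D1:**
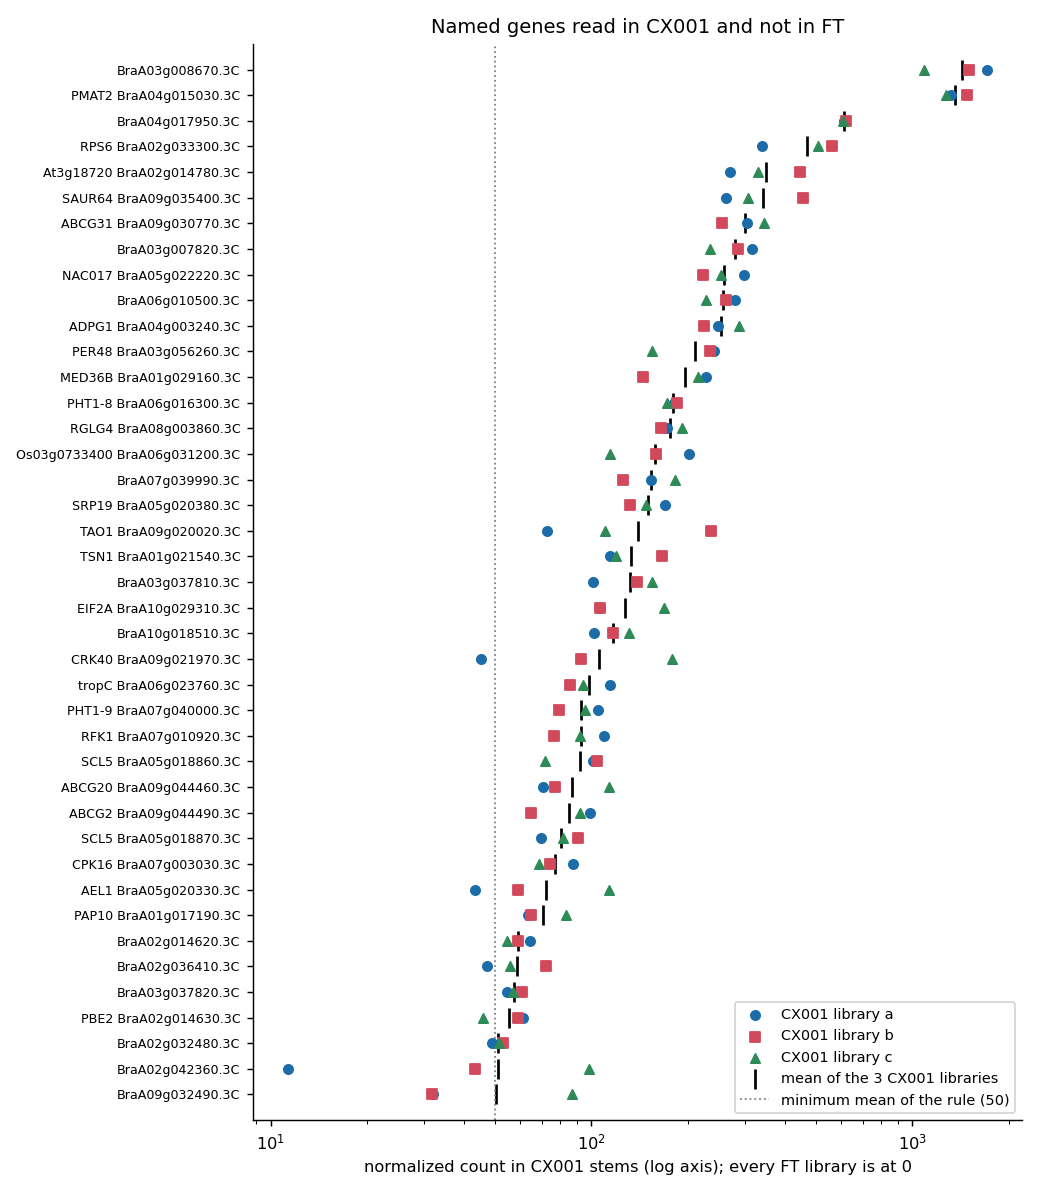
Normalized count of each named gene in CX001 libraries a, b and c (points, log axis) with the mean of the 3 libraries (bar) and the minimum mean of 50 (dotted line); every FT library is at 0 for all of them. Means run from 50.2 to 1433, and the widest spread within a gene is that of *BraA02g042360.3C*, between 11.3 and 98.6.

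The highest of the 137 genes was *BraA03g008670.3C* (chromosome 3, 3715978 to 3717012, minus strand, in the coordinates of the deposited table), a gene with no Swissprot match, which had 1715, 1499.6 and 1084 normalized counts in the CX001 libraries (1433 ± 321, SD, n = 3). Every library of CX001 was above 1000 and every FT library was at 0, a difference of at least 1359-fold. *BraA04g015030.3C* (PMAT2, chromosome 4, 11596130 to 11598473) followed at 1319.5, 1476 and 1272 (1356 ± 107). PMAT2 is a malonyltransferase that in *Arabidopsis* attaches malonyl groups to phenolic glucosides. Its 3 libraries stood close together, and no other gene of the set with a Swissprot match reached 500. *BraA04g017950.3C*, again without a match, was at 612, 619.5 and 606 (612 ± 6.67) and had the smallest coefficient of variation of the set, 1.09%.

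The cell wall list, which goes by words of the Swissprot description, held 5 of the 137 (3.65%, against 1.94% of the rows that reached 50 in CX001). It held none of the 118 genes read only in FT. Members such as CEL3 (an endoglucanase) and GAUT10 (a probable galacturonosyltransferase) fall outside its words, so it does not count every wall gene. *BraA04g003240.3C* (ADPG1, a polygalacturonase that in *Arabidopsis* cuts pectin where organs and fruits separate) was at 248, 224 and 289 (254 ± 33.0) and had no other row with its symbol. The peroxidase gene *BraA03g056260.3C* (PER48) was at 242, 234 and 154 (209.8 ± 48.3). PER48 had a second row, *BraA01g004320.3C*, which was near 0 in both lines (2.63 in FT and 0 in CX001). The other peroxidase, *BraA02g023920.3C* (PER13), was uneven at 80.2, 325 and 147, and *BraA05g031730.3C* (EXPA12, an expansin, a family that loosens walls) was at 51.0, 183 and 166. The fifth gene of this list was the glucanase read in 1 library. Among the 485 genes of this list that were not members and could be tested, 141 were higher in CX001 and 65 lower, with a median log2 difference of 0.38. Over all genes tested, 14.5% were higher and 16.1% lower in CX001. Some of the xylem rows described above, those of the cellulose synthases CESA4, CESA7 and CESA8, belong to this list too. The xylem rows summed to more in CX001, and their part in this count was not tested.

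Immune receptors were 6 of the 137 genes (4.38%), against 0.418% of the rows that reached 50 in CX001. Another 7 were among the 118 genes read only in FT (5.93%). These intracellular receptors recognise pathogen effectors directly or by guarding host proteins, and in *Arabidopsis* RPS6 and RPP1 each answer to particular pathogens. *BraA02g033300.3C* (RPS6, chromosome 2, 22988009 to 22991378) was the highest, at 341, 562 and 507 (469.7 ± 115). The others described here were 2 rows of TAO1, 1 of RPP1 and 1 of At5g66900. *BraA09g020020.3C* (TAO1) was at 72.7, 236 and 110.3 (139.8 ± 85.8) and *BraA08g014830.3C* (TAO1) at 63.2, 88.8 and 56.8. Both TAO1 genes were highest in library b, which also held the most RPS6 and RPA1C. *BraA03g060530.3C* (RPP1) was at 50.03, 77.2 and 78.2 and *BraA07g017020.3C* (At5g66900) at 58.5, 52.1 and 57.8. Immune receptor genes outside the set tended the other way: of 154 tested, 18 were higher and 57 lower in CX001, and their median log2 difference was -0.63. Over all tested genes outside the set, 14.0% were higher and 16.2% lower. Leaving out the members removed receptors of the higher direction only, while those read only in FT stayed in, which can favour the lower direction. Of the 76 symbols in the set, 1 (RPP1, 1.32%) also occurred among the 87 symbols of the genes read only in FT. How many symbols lists of this size would share by chance was not computed.

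Protein turnover was the largest named list, with 9 genes (6.57%, against 5.50% of the rows that reached 50), and the share was near that background. *BraA02g014780.3C* (At3g18720, an F-box protein with kelch repeats, the part of a ubiquitin ligase that binds the target) was at 271, 447 and 331 (349.6 ± 89.4), with no other row of its symbol. *BraA08g003860.3C* (RGLG4, a ubiquitin ligase that in *Arabidopsis* acts in jasmonate signalling) was at 172, 165 and 192 (176 ± 13.9). The list also held 3 genes annotated to the proteasome, the complex that degrades tagged proteins: *BraA02g014630.3C* (PBE2) at 55.4, *BraA04g003620.3C* (a beta type-5 subunit) at 52.0 and *BraA02g030860.3C* (RPT4A) at 60.9. The PBE2 member was a small part of its symbol, since the other 3 PBE2 rows had CX001 means of 849, 1437 and 1671 and FT means of 1266, 1278 and 1061.

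Several regulators of transcription and growth were in the set. *BraA05g022220.3C* (NAC017, a membrane-tethered transcription factor that in *Arabidopsis* relays mitochondrial stress to the nucleus) was at 299, 223 and 254 (259 ± 38.4). *BraA09g035400.3C* (SAUR64, of a family of small auxin-responsive proteins) was at 263, 457 and 307 (343 ± 102). *BraA07g031650.3C* (TSF, a relative of the flowering signal protein FLOWERING LOCUS T) was at 74.6, 79.1 and 168 (107 ± 52.8). NAC017 belonged to a list of 4 transcription factors (2.92%, against 5.01% of the rows that reached 50), which also counted *BraA06g031200.3C* (RICESLEEPER 2, a gene derived from a hAT transposase) at 201, 159 and 115. That list goes by words of the Swissprot description and leaves out regulators such as SCL5 and CAMTA6, so its share does not cover every regulator. SAUR64 and TSF had no other row of their symbols, and TSF lies outside the rule for named genes and was chosen after its values were seen.

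The transport list had 5 members (3.65%, against 3.86%). *BraA09g030770.3C* (ABCG31, an ABC transporter) was at 305, 255 and 346 (302 ± 45.7), although its coding length of 684 bases was 15.8% of that of the longest ABCG31 row. *BraA06g016300.3C* (PHT1-8) and *BraA07g040000.3C* (PHT1-9), both of the family of plasma membrane phosphate transporters, were at 181, 185 and 171 and at 105, 79.1 and 95.3. Receptor kinases gave 2 members (1.46%, against 1.77%). These were *BraA09g021970.3C* (CRK40) at 45.3, 92.6 and 179 and *BraA07g010920.3C* (RFK1) at 109, 76.2 and 92.1. Signalling gave 5 (3.65%, against 6.89%). They were led by *BraA07g003030.3C* (CPK16, a calcium-dependent kinase) at 76.9 ± 9.87 and *BraA01g017190.3C* (PAP10, a purple acid phosphatase) at 70.5 ± 11.3. Specialised metabolism gave 3 (2.19%, against 2.97%), of which *BraA06g023760.3C*, matched to the dioxygenase tropC of a fungus, was at 98.1 ± 14.5. The transposon list gave 2 (1.46%, against 0.0459%), of only 9 rows of this list that reached 50. Another 2 were among the 118 genes read only in FT (1.69%). The members were *BraA10g018510.3C* (an AC transposase) at 116 ± 14.4 and *BraA02g036410.3C* (a TX1 protein) at 58.4 ± 12.8. RICESLEEPER 2, also derived from a transposase, was counted with the transcription factors. Translation gave 1 (0.730%, against 4.48%). It was *BraA10g029310.3C* (EIF2A, a subunit of the factor that brings the initiator tRNA to the ribosome), at 107, 106 and 168. Chaperones and the lipid and cuticle list, which covers the wax pathway of the study, gave none of the 137, where 0.893% and 1.49% of the rows that reached 50 belonged to them.

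The list of nucleic acid proteins held 8 members (5.84%, against 5.77% of the rows that reached 50) and 1 of the 118 genes read only in FT. *BraA01g029160.3C* (MED36B, a fibrillarin-like subunit of the Mediator) was at 227, 145 and 215 (196 ± 44.7), and *BraA01g021540.3C* (TSN1, a Tudor nuclease of stress granules) at 114, 166 and 119 (133 ± 28.6). In the pathway annotation, 7 of the 137 genes were filed under homologous recombination (5.11%, against 0.367% of the rows that reached 50) and none of those read only in FT. Of these 7, 6 carried the orthology term of replication protein A large subunit, which coats single-stranded DNA during replication and repair, and the seventh was *BraA01g025720.3C* (BRCA1, at 110.4, 63.7 and 119). This family was noticed after its values were seen and gets no test.

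The 6 genes filed under replication protein A were *BraA05g024100.3C* (RPA1C) at 50.03, 83.0 and 48.2, *BraA06g021660.3C* at 105, 78.2 and 102, *BraA07g002940.3C* at 126, 116 and 92.1, *BraA08g005610.3C* at 53.8, 62.7 and 62.1, *BraA08g017420.3C* at 71.7, 59.8 and 43.9, and *BraA03g039840.3C* at 44.4, 61.8 and 57.8. Their levels lay on both sides of the median of the set. Of them, 4 had no Swissprot match, as did 70 of the 101 rows with this term. The RPA1C member had a coding length of 3852 bases and the others between 156 and 783. Medians were 666 bases for the set and 1203 for the rows that reached 50 in CX001. *BraA07g002940.3C* matched CDC48E in Swissprot, an unrelated ATPase, so its annotations disagreed. In the whole table, 101 rows carried this term, 27 of them reached 50 in CX001 and 25 reached 50 in FT. The 6 members were 22.2% of those 27 rows, and no row of the term was read only in FT at a mean of 50 or more. Counting means of at least 10, 14 rows of the term were read only in CX001 and 3 only in FT. The 48 other rows that could be tested were spread in both directions: 15 were higher (31.2%) and 16 lower (33.3%) in CX001, where 14.0% and 16.2% of all tested genes outside the set were.

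The 137 genes were less well annotated than other expressed genes. Of them, 53 had no Swissprot match (38.7%, 95% exact binomial interval 30.5 to 47.4%), against 13.1% of the rows that reached 50 in CX001 and 21.2% of the genes read only in FT. A Gene Ontology term was attached to 45 (32.8%), against 57.3% and 44.1%. The terms held by most members were protein binding (12 genes, 8.76% against 11.6% of the rows that reached 50), DNA binding (6, 4.38% against 4.18%) and nucleic acid binding (6, 4.38% against 4.0%), all near or below the background. Of the terms held by 4 members, oxidation-reduction process stood at 2.92% against 3.35% and signal transduction at 2.92% against 0.485%. Signal transduction was also held by 4 of the 118 genes read only in FT. The 53 genes without a match included 4 of the 10 highest members: beside *BraA03g008670.3C* and *BraA04g017950.3C* these were *BraA03g007820.3C* at 317, 287 and 235 and *BraA06g010500.3C* at 279, 262 and 227.

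The best protein match in the NR database lay outside *B. rapa* for most of them. It was a *B. rapa* protein for 57 of the 137 (41.6%), against 79.4% of the rows that reached 50 in CX001, and a protein of *Brassica napus*, the hybrid species that carries an A genome from *B. rapa* and a C genome from *B. oleracea*, for 61 (44.5%, against 16.6%). Named by subgenome, 28 of those best matches were A genome genes of *B. napus* (20.4%, against 7.08%) and 18 were C genome genes (13.1%, against 1.65%). Genes read only in FT gave 46.6% for *B. rapa*, 16.9% for the A genome and 6.78% for the C genome of *B. napus*. No NR match was listed for 6 members (4.38%, against 0.270%). Both sets read in 1 line thus stood on the same side of the background for the *B. rapa* share.

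**Figure D2:**
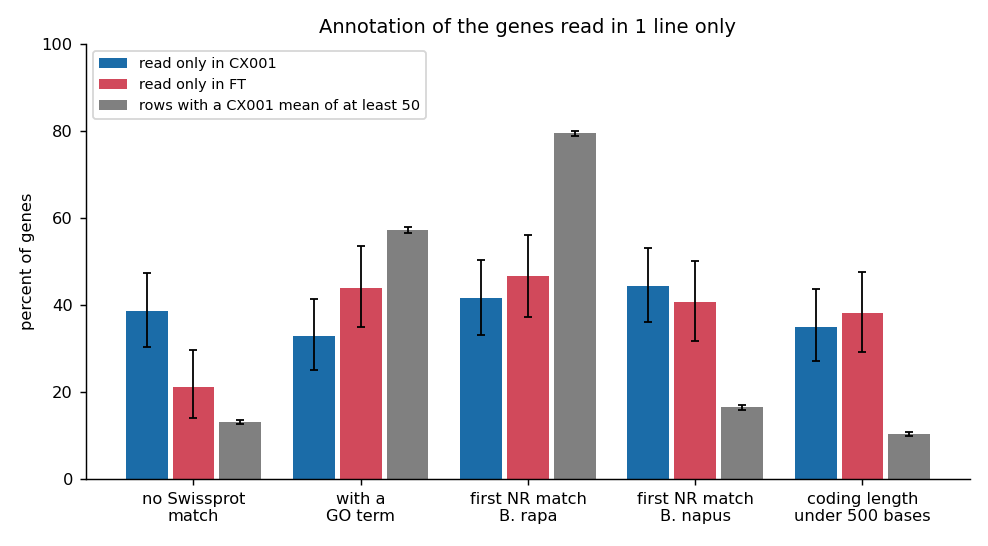
Percent of genes with each annotation among the 137 genes read only in CX001, the 118 read only in FT and the 19601 rows with a CX001 mean of at least 50; error bars are 95% exact binomial intervals. The genes read in 1 line only differ from the background in the same direction in all 5 shares, and 38.7% of the 137 lack a Swissprot match against 21.2% of the 118.

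The coding regions were short. The median coding length of the 137 genes was 666 bases (quartiles 408 and 1074, range 156 to 3927), against 1203 bases for the rows that reached 50 in CX001 and 634.5 for the genes read only in FT. Under 500 bases were 48 of them (35.0%, against 10.5%), and over 2000 bases 12 (8.76%, against 18.9%). The immune receptors described above stood at the long end, with coding lengths between 2142 bases (At5g66900) and 3927 bases (TAO1), beside RPA1C at 3852 and the TX1 protein at 3612.

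**Figure D3:**
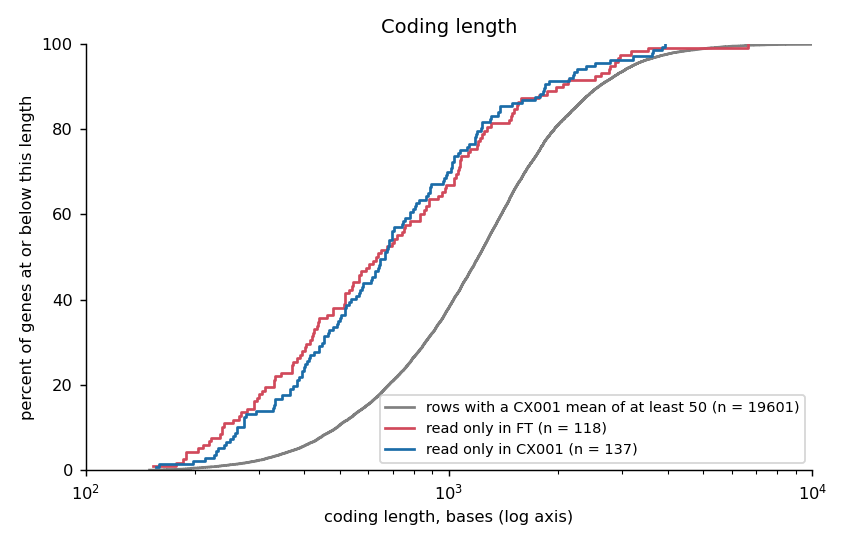
Cumulative percent of genes by coding length in bases (log axis) for the genes read only in CX001, those read only in FT and all rows with a CX001 mean of at least 50. The curves of both sets read in 1 line only run close together and to the left of the background, with medians of 666 and 634.5 against 1203 bases.

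Other rows with the same symbol were common. A symbol was given for 80 of the 137 genes, 68 of these shared it with at least 1 other row, and 59 (73.8%, 95% interval 62.7 to 83.0%) had such a row with an FT mean of at least 10. Among all 16842 rows with a symbol that reached 50 in CX001, 68.4% had one, and of the 90 genes read only in FT with a symbol, 73.3% had a same-symbol row read in CX001. The member was often the shorter one: 18 of 68 (26.5%, 95% interval 16.5 to 38.6%) were under 50% of the longest same-symbol coding length, against 5.58% over the rows that reached 50 and 35.1% of the genes read only in FT. The smallest shares were those of ARC6 (*BraA03g060810.3C*, chloroplast division, 9.06% of the longest row), BRCA1 (*BraA01g025720.3C*, 9.36%) and RH53 (*BraA06g021980.3C*, an RNA helicase, 14.7%), named after their values were seen, followed by RFK1 (15.4%) and ABCG31 (15.8%). The member's share of all CX001 normalized counts on its symbol had a median of 16.4% over the 68 genes and ran from 0.340 to 100%. Counting only rows with the member's own Swissprot description, the median was 17.1% over 67 genes.

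The genes that share a symbol with a member were not chosen by their own values, except that other members were left out. They could be tested between the lines, but rows read only in FT stayed in, which can favour the lower direction. Of 244 such genes, 171 passed the filter, and by limma 29 were higher (17.0%) and 43 lower in CX001 (25.1%), with a median log2 difference of -0.15, where 14.0% and 16.2% of all tested genes outside the set were higher and lower. A shared symbol does not always mean a shared protein: 10 of the 171 had another Swissprot description than the member, such as rows of RPS6 that are chloroplast ribosomal proteins and rows of ARP1 that are ribosomal protein L3-1. Without these 10, 28 of 161 were higher (17.4%) and 41 lower (25.5%). The largest group of higher calls within a symbol was that of ARP1, with 6 of 16 rows tested, and TAO1 had the most lower calls. The ARP1 count includes L3-1 rows, and *BraA06g041560.3C*, at 11.6 in FT and 125 in CX001, was an L3-1 row called higher. Both tested RGLG4 rows fell. *BraA07g026280.3C* (RGLG4) fell from 419, 468 and 430.1 in FT to 129, 181 and 148 in CX001 (log2 difference -1.53 ± 0.17, SE, limma adjusted p = 0.000194), and *BraA07g042330.3C* (RGLG4) fell from a mean of 197 to 51.6 (-2.01 ± 0.34). The libraries of the lines did not overlap for either gene. *BraA02g023500.3C* (PHT1-9) fell from 38.3 to 2.34 (-3.61 ± 0.44, limma adjusted p = 0.000338), the only PHT1-9 row besides the member that could be tested. *BraA05g023800.3C* (RICESLEEPER 2) fell from 536 to 0.714, with 2 of 3 CX001 libraries at 0 (-8.52 ± 0.48, limma adjusted p = 8.48e-06), while the other tested RICESLEEPER 2 rows, *BraA05g030200.3C* at 10.2 in FT and 22.5 in CX001 (1.02 ± 0.49) and *BraA07g004730.3C* at 13.6 and 19.4 (0.51 ± 0.39), were not called.

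PMAT2 had calls in both directions, and TAO1 mostly lower ones. Of the 7 other PMAT2 rows, 5 could be tested: *BraA07g019770.3C* rose from 24.2 to 149 (log2 difference 2.60 ± 0.31), *BraA07g035240.3C* fell from 282 to 82.6 (-1.74 ± 0.25) and *BraA06g036300.3C* fell from 49.5 to 19.6 (-1.27 ± 0.33). The member itself, at 1356, stood above each of these rows in either line, also per kilobase. Of 15 TAO1 rows tested, 7 were lower and 2 higher in CX001. Among them, *BraA07g030350.3C* fell from 412, 493 and 302 to 2.83, 7.72 and 3.21 (-6.25 ± 0.39, limma adjusted p = 1.26e-05) and *BraA01g043300.3C* from 438 to 32.0 (-3.77 ± 0.32), while *BraA09g015890.3C* rose from 0.351 to 17.7 (3.64 ± 0.62). *BraA02g032920.3C* (RPS6) rose from 22.2 to 52.6 (1.20 ± 0.30) and *BraA02g032880.3C* (RPS6) fell from 41.5 to 17.7 (-1.24 ± 0.37), and 4 further rows of the receptor passed the filter without a call. Rows of near-identical sequence can share reads, so values within these families are uncertain.

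The same-symbol rows of NAC017 and TSN1 did not pass the fold minimum. The NAC017 rows *BraA08g008140.3C* and *BraA09g031130.3C* had log2 differences of 0.21 ± 0.13 and 0.06 ± 0.13, at FT means of 366 and 381. The TSN1 rows *BraA03g002940.3C* and *BraA02g002310.3C*, at 3715 and 4031 in FT, had differences of 0.06 ± 0.12 and 0.36 ± 0.12, so the TSN1 member at 133 added little to this symbol. *BraA10g029350.3C* (EIF2A), which lies close to the member on chromosome 10, had means of 184 in FT and 125 in CX001 (-0.55 ± 0.18), short of the fold minimum. Other symbols were mixed. SCL5 had *BraA06g003170.3C* at 1435 and 980.2 (-0.55 ± 0.16) and *BraA06g012140.3C*, which rose from 7.98 to 57.5 (2.72 ± 0.33). *BraA03g021340.3C* (SRP19) had no FT read either and stood at 13.2, 24.1 and 47.1 in CX001, under the minimum of the rule, and *BraA08g004750.3C*, the highest SRP19 row, was at 387 in FT and 219.7 in CX001 (-0.83 ± 0.18, limma adjusted p = 0.00628), short of the fold minimum.

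**Figure D4:**
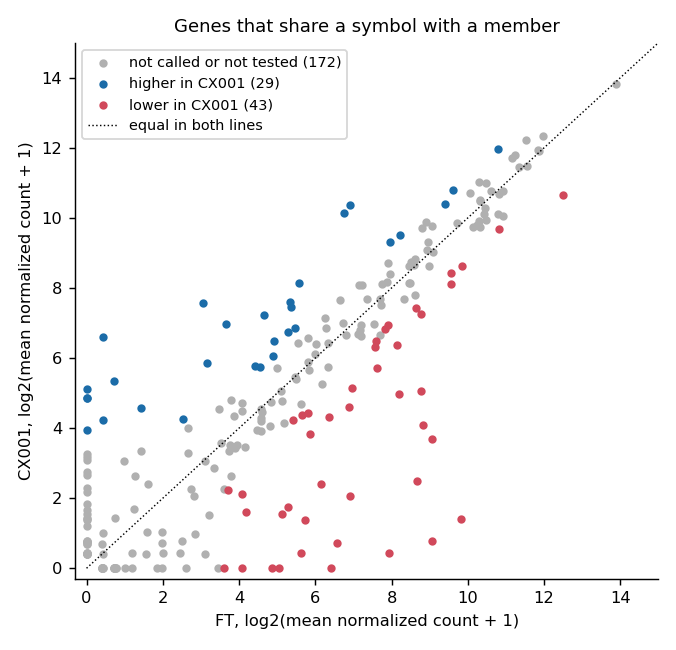
Mean normalized count in FT and CX001, each as log2(mean + 1), of the 244 genes that share a symbol with one of the 137 genes and are not members themselves; the dotted line marks equal levels. Of these, 29 were called higher (blue) and 43 lower (red) in CX001.

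The 137 genes were spread over all 10 chromosomes. Chromosomes 7 and 9 had the most, with 17 each, and chromosome 10 the fewest, with 4. As a share of the rows that reached 50 in CX001, they ranged from 0.255% on chromosome 10 to 0.943% on chromosome 4, and 1 member lay on an unplaced scaffold. Of the 17 on chromosome 9, the nearest to *BraA09g066480.3C* was *BraA09g059950.3C* (FDM4, a factor of RNA-directed DNA methylation), 3054284 bases and 527 rows away.

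Most members had no other member beside them. In row order, 12 (8.76%) were next to another member, in 6 pairs, where members were 0.414% of all rows. Of the 118 genes read only in FT, 6 were next to one another. How many neighbours the same number of rows drawn at random would give was not computed. *BraA05g018860.3C* and *BraA05g018870.3C* both matched SCL5, a GRAS family regulator, lay 91 bases apart on the same strand and had 501 and 885 bases of coding length. They stood at 101, 104 and 71.8 and at 69.8, 90.7 and 81.4, and the longest SCL5 row was longer than both together. *BraA03g037810.3C* and *BraA03g037820.3C*, without a match, were 16 bases apart and stood at 131 and 57.4. *BraA09g044460.3C* (ABCG20) and *BraA09g044490.3C* (ABCG2), 11697 bases apart, stood at 87.2 and 85.3, and *BraA07g039990.3C* and *BraA07g040000.3C* (PHT1-9), 552 bases apart on opposite strands, at 154 and 93.1. The other pairs were *BraA02g014620.3C* at 59.2 with *BraA02g014630.3C* (PBE2) at 55.4, and *BraA05g020330.3C* (AEL1, of the cytosolic iron-sulfur cluster machinery) at 71.9 with *BraA05g020380.3C* (SRP19, of the signal recognition particle) at 149.7. A gene model overlapped a member in 1 case, *BraA09g041820.3C*, on the same strand. The strand setting of the counting was not stated in the sources used here, so reads of close neighbours may be shared.

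The rows beside a member were not chosen by their own values, except that other members were left out. Of 182 such rows with a CX001 mean of at least 10, 145 (79.7%, 95% interval 73.1 to 85.3%) also reached a mean of 10 in FT, against 92.6% of all rows with that CX001 level, and 10 (5.49%) had no FT read, against 1.7%. The shares over all rows include the 137 members, none of which had an FT read, so both sets are not alike. For the test between the lines, neighbours that reached 10 in FT or in CX001 were used, a filter that favoured neither direction. Leaving out members removed rows of the higher direction only, here and among the tested genes outside the set. By limma, 48 of these 190 were higher in CX001 (25.3%) and 28 lower (14.7%), with a median log2 difference of 0.21, where 14.0% and 16.2% of all tested genes outside the set were higher and lower. Of the 48 higher rows, 20 had an FT mean under 1, and of the 28 lower rows, 4 had a CX001 mean under 1.

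*BraA09g030720.3C* (At1g34750, a protein phosphatase), beside ABCG31, was at 0.321 in FT and 402 in CX001 (log2 difference 8.33). *BraA02g033280.3C* (VICTR, another immune receptor), beside RPS6, was at 1.28 and 356 (7.47), and *BraA03g039830.3C* (TSO2, a small subunit of ribonucleotide reductase), beside a replication protein A gene, at 0.321 and 213 (7.42). In the other direction, *BraA03g007800.3C*, without a Swissprot match and beside *BraA03g007820.3C*, was at 691 in FT and 0.679 in CX001 (-8.76). These 4 were named after their values were seen. For 44 members both neighbouring rows had an FT mean of at least 10, for 66 members 1 of them had, and for 27 members neither.

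**Figure D5:**
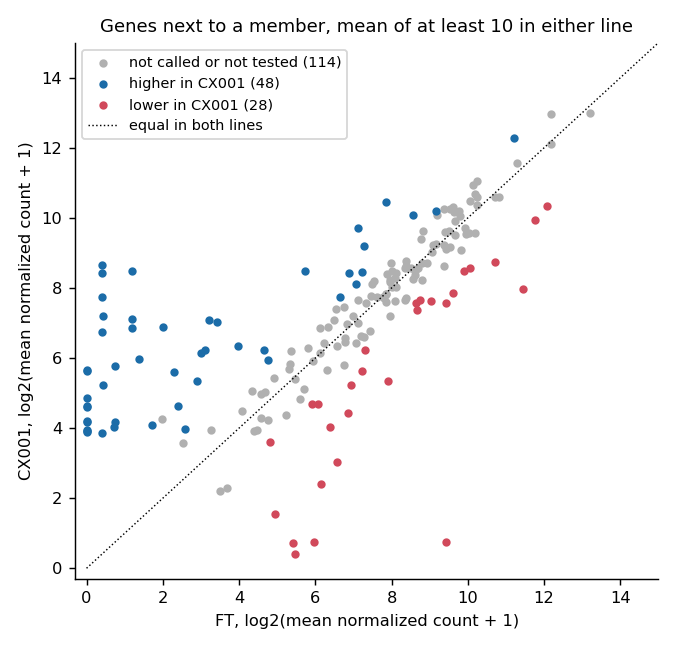
Mean normalized count in FT and CX001, each as log2(mean + 1), of the 190 rows next to a member that reached a mean of 10 in FT or in CX001; the dotted line marks equal levels. The 48 rows called higher in CX001 (blue) include 20 with an FT mean under 1 at the left edge, and the 28 called lower (red) include 4 with a CX001 mean under 1.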

How the data were processed

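RNA-seq was made from stems of both lines, with 3 libraries each. According to the methods, the authors aligned reads with HISAT2 (the submitters' notes also name TopHat2) and used DESeq2; versions, the alignment build and strand setting are not given in the sources used here. The deposited values are the mean normalized count (signal) of each line, with gene position, annotation and length (other, in bases; coding length). The table also holds the authors' fold changes and p-values, which were not used. Since each deposited mean is a sum of whole reads times the worth of 1 read in each of 3 libraries, reads per library were solved from its 15 significant digits, to 1 unit of the last digit; exactly 1 solution was found for every mean up to 10000, leaving out 176 genes. Libraries a, b and c are named by the worth of a read and carry no label of their own.

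The 25817 genes that reached a mean of 10 in FT or in CX001 were tested with limma 3.58.1 in R 4.3.3 on log2(normalized count + 1), with a trended prior and Benjamini-Hochberg adjustment, and called at adjusted p under 0.05 and a log2 difference over 1, which understates changes of low genes. No count model was run on the solved reads. A simulation over 25158 genes gave every gene the same dispersion and called at adjusted p under 0.05 without the fold minimum. There, 97 of 100 genes changed 4-fold and 39 of 100 changed 2-fold were recovered, with 6 false among 142 calls. The rule with the fold minimum was not simulated. Shares carry exact Clopper-Pearson 95% intervals, computed with scipy 1.17.1 in Python 3.11.15.

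Symbols are those of Swissprot matches. Of 13 function lists, the first whose words occur in the Swissprot description counted. Named were the 10 highest members, members next to each other, up to 2 of each list, the rows at the edge of the rule and same-symbol rows of these, beyond which a choice is marked or a full list is given. Members and lists were chosen with earlier results of these data known. Alternatives changed the minimum mean, the FT limit, the neighbour rule, pseudocount, filter and libraries. The values of 1 member are not reported here.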

Additional observations from a re-analysis of the deposited data

How the results depend on the processing

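The count of genes read only in CX001 depended on the limits of the rule: 235 at a minimum of 25, 52 at a minimum of 100 and 229 with up to 3 FT reads allowed, and between 132 and 145 when a CX001 library was left out. At the minimum of 100, 61.8% had a same-symbol row expressed in FT, 0% (0 of 52) were next to another member and the median coding length was 769.5 bases. Flanking rows reached the FT limit in 88.1% with 3 rows on each side and in 89.0% with an FT mean of at least 1. Without a fold minimum, 45 same-symbol genes were higher and 54 lower in CX001 (29 and 43 with it), and 69 flanking genes were higher and 40 lower (48 and 28 with it). Leaving out each library in turn gave 27 to 32 same-symbol genes higher and 38 to 43 lower, 26 to 31 and 36 to 41 of those with the member's own description, and 44 to 49 flanking genes higher and 24 to 28 lower. Over 62 same-symbol genes of the named members and 557 alternative values, 538 kept their call, 14 lost it, 5 gained one and 0 changed direction. The flanking gene test and its alternatives, the match by description, the symbols with at most 5 rows, the length settings and the libraries left out of the member count were chosen after seeing the data. No paired analysis was possible because the labels give no replicate numbers that could pair libraries of both lines.

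With no FT read, a gene may still have a mean of up to 1.05 in FT. The values used were line means, so each library rests on reads solved from their digits. A gene that is absent, one that is silent and a copy that differs from the reference cannot be told apart in this table.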
